A study of Mus musculus with 6 samples.

Results

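Chemokines and interleukins are the secreted signals through which cells of a tissue call in, place and instruct leukocytes. Chemokines bind receptors that couple to G proteins and steer cell migration. Interleukins bind receptors built from shared chains, and pass their signal on through JAK kinases and STAT factors or, for the IL-1 and IL-17 families, through adaptors that lead to NF-kB. In peripheral nerve they are known above all from injury, when Schwann cells and resident macrophages release them. The genes described here are all those whose symbol in the array annotation begins with Ccl, Cxcl, Ccr or Cxcr and a digit, with Cx3c, or with Il and a digit. These are 207 of the 45281 probes on the array and 129 of its 19057 named genes. Dim probes were included, and no measured value entered the choice.

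RNA came from sciatic nerves of mice at postnatal day 14, when Schwann cells are wrapping axons in myelin. The 3 mutant samples carry the transgene P0 Cre, in which the promoter of the main peripheral myelin protein drives the recombinase in cells of the Schwann lineage, and a mutation in Dicer, the enzyme that trims microRNA precursors. Their genotype label ends in "F or N", whose meaning no label explains. The 3 control samples are littermates, titled WT, for which no label gives the alleles at Dicer or at the transgene. Each sample names both sexes and was read on 1 Illumina Mouse WG-6 version 2 array, and whether a sample held 1 animal or several is not stated. The series' design text speaks of cultured cells, whereas its title and every sample label name the nerve. A p-value here speaks only of the spread among these 6 samples, part of which could be technical.

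Signals were deposited in a log2-like form, from 7.96 to 15.91 with a median of 8.24 in each array. Every difference is mutant minus control on that scale, and a probe is called when its limma adjusted p, taken over all 45281 probes, is under 0.05. In a whole-nerve sample, fewer cells of a type and less RNA per cell cannot be told apart. Correlations over the 18420 brightest probes ran from 0.992 to 0.995 among control arrays and from 0.973 to 0.993 among mutant arrays, where mutant replicate 1 stood farthest from the others, and from 0.912 to 0.942 between the groups. The Schwann lineage factor Sox10 read 13.98 in mutants and 13.94 in controls, so the labelled nerve tissue carried its defining marker in both. Of 5 Schwann lineage markers 3 fell, with Mag, an adhesion molecule of myelin, at -3.19, the myelin transcription factor Egr2 at -2.45 and S100b at -1.19. Of 8 markers of immature Schwann cells 5 rose, with Ngfr at 3.42, Ednrb at 1.89 and Ncam1 at 1.60. With the replicate block 4 did, since Jun (0.37) lost its call (adjusted p = 0.0879), as it also did on leaving out any array but mutant replicate 1. Skeletal muscle markers, 6 on the array, had a mean level of 9.55 to 11.48 in mutants and 11.56 to 12.84 in controls, with Myh1 alone called, at -0.89, a call lost without any single array except mutant replicate 1 (adjusted p from 0.0526 to 0.0875). Markers of fat cells were 0 of 5 called (1 lower without mutant replicate 1 or control replicate 3), and of fibroblasts and perineurium 2 of 11 were, both higher, Lum at 0.99 and Col1a1 at 0.61. Lum lost its call without control replicate 1 (adjusted p = 0.0633) or 2 (0.0632), and without control replicate 3 a further 2 genes of that list were called lower. The part of these shifts in the values below was not tested.

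Of the 207 member probes, 24 (11.6%) were called, 17 higher and 7 lower in mutants. Over all probes of the array the share called was 14.1%, with 7.95% higher and 6.15% lower, so the share among the members lay near the background. Their median difference was 0.00, as it was over all probes. With each gene read at its brightest probe, calls fell on 19 of 129 genes (14.7%), 13 higher and 6 lower, against 19.9% of all genes (11.2% higher, 8.63% lower). With any probe counted, 14 genes rose, 7 fell and 108 had no called probe. The share over all genes was not computed for that count, which the gene counts by family below also use. A gene with several probes, as 49 members have, has more chances of a call in it. Past the 2-fold threshold there were 2 members, Cxcl10 higher and Il16 lower, where the background was 1.76%. Groups did not overlap in 56 member probes (27.1%), against 30.4% of all probes (16.1% higher, 14.2% lower). Without control replicate 2 the count of called member probes was 15, with 11 higher and 4 lower, and without control replicate 1 there were 11 higher. The number of all probes called fell in the same fits, from 6386 to 4453 and to 4167.

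Most members gave little signal in nerve at this age. Of the 207 probes, 76 lay among the 18420 brightest of the array, and 75 of the 129 genes had no probe there. Those 75 include Il1b, Il6, Il10 and Il17a, and the chemokine receptor genes Ccr2, Cxcr2 and Cxcr3. Among the 131 dim probes, 3 were called, with differences of 0.12, 0.15 and -0.21, and the others ran from -0.08 to 0.10. When the 18420 brightest probes alone were tested, 24 of 76 members (31.6%) were called, 16 higher and 8 lower, against a background of 35.8% (19.9% higher, 15.9% lower), and 21 of them were called in both fits.

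**Figure D1:**
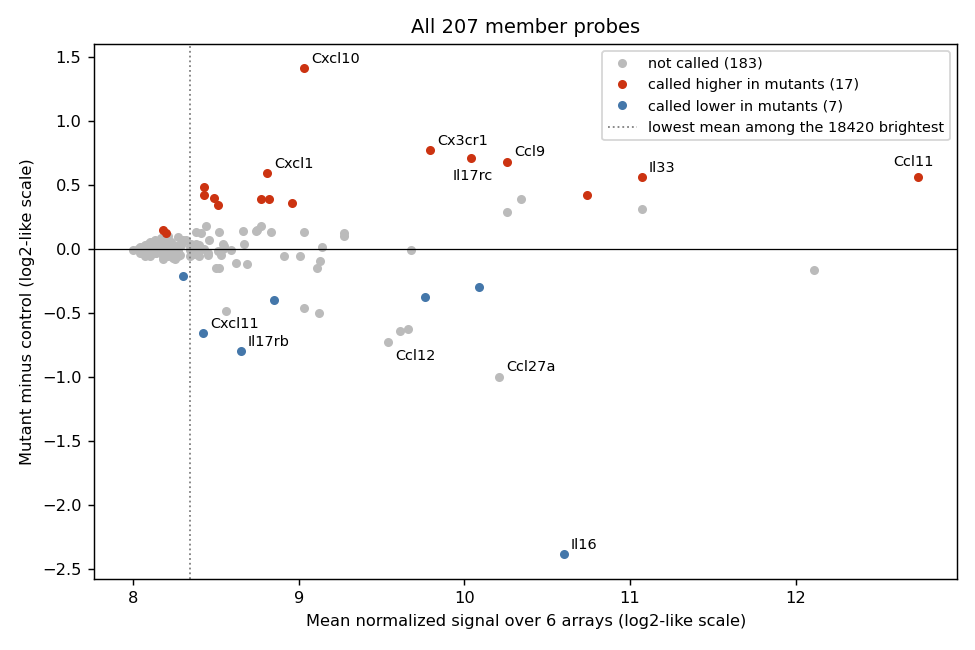
Mutant minus control for each of the 207 member probes (vertical axis, deposited log2-like scale) against its mean signal over 6 arrays (horizontal axis, same scale), coloured by call, with the dotted line at 8.34, the lowest mean among the 18420 brightest probes. Most points crowd at the dim end around a difference of 0, Il16 lies at -2.39 and Cxcl10 at 1.41.

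Among the ligands, 9 genes rose and 5 fell, and the CC chemokines held 6 of these 14. Of 22 CC chemokine genes 5 rose, Ccl9, Ccl11, Ccl5, Ccl2 and Ccl3, and 1, Ccl27a, fell, while 16 had no called probe. The median over their 32 probes was -0.01. The largest rise was that of Ccl9, a ligand of Ccr1 made by myeloid cells. Ccl9 read 10.51, 10.69 and 10.62 in mutant replicates 1 to 3 and 9.84, 10.03 and 9.90 in controls. All mutant arrays lay above all control arrays, with a difference of 0.68 (SE 0.067, limma adjusted p = 0.00201).

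Ccl11 is eotaxin, the attractant of eosinophils that acts on Ccr3. Its brighter probe had 12.99, 12.98 and 13.10 in mutants and 12.40, 12.39 and 12.58 in controls. It rose by 0.56 (SE 0.0638, adjusted p = 0.0034 by limma), without overlap of the groups. The other Ccl11 probe, at 11.22 ± 0.27 in mutants and 10.91 ± 0.17 in controls (SD, n = 3), differed by 0.31 and was not called (limma adjusted p = 0.316), but was without mutant replicate 1 (0.47, adjusted p = 0.0335). Ccl2, the main attractant of monocytes through Ccr2, had 8.62, 8.80 and 8.66 in mutants against 8.25, 8.32 and 8.31 in controls. It rose by 0.40 (SE 0.0512, limma adjusted p = 0.00532), and its control level lay at the dim end of the scale.

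Ccl5, which attracts T cells and monocytes, had 8.46, 8.69 and 8.77 in mutants and 8.25, 8.19 and 8.21 in controls. Its rise of 0.42 (limma adjusted p = 0.0237) did not pass with the replicate block (0.0616), nor on leaving out mutant replicate 2 (0.0856) or control replicate 1 (0.0786), 2 (0.0902) or 3 (0.0853). Ccl3, a macrophage chemokine, moved from 8.14 ± 0.0187 to 8.25 ± 0.029 (SD, n = 3), a rise of 0.12 (limma adjusted p = 0.0262). That call ended with the replicate block (0.0504) and on leaving out any array other than mutant replicate 1 (adjusted p from 0.0668 to 0.0963). Both genes were therefore separated between the groups in all arrays, but at small differences near the dim end.

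Ccl27a, a chemokine of epithelia that acts on Ccr10, was lower at both of its probes. The brighter had 9.46, 10.07 and 9.59 in mutants and 11.06, 10.78 and 10.29 in controls, with means of 9.71 and 10.71 (SE of the difference 0.245). It missed the threshold (limma adjusted p = 0.0503) and passed it without mutant replicate 2 (0.0482), without control replicate 3 (0.0354), and when the 18420 brightest probes were tested (0.0155). The dimmer probe fell by 0.40, from 9.05 to 8.65 (adjusted p = 0.0295 by limma). The replicate block (0.0966) ended that call, as did leaving out mutant replicate 3 (0.0695), control replicate 1 (0.0898) or control replicate 2 (0.0939). The mouse genome holds near-identical copies of Ccl27a, so which copy these probes read is uncertain.

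Of 12 CXC chemokine genes 3 rose, 1 fell and 8 had no called probe, with a median of 0.02 over 22 probes. Cxcl10, an interferon-induced attractant of activated T cells through Cxcr3, led the rises. Its brighter probe had 9.54, 10.07 and 9.61 in mutants and 8.25, 8.33 and 8.40 in controls. The difference of 1.41 (SE 0.146, adjusted p = 0.00241 by limma) was the largest rise among all members, and the second probe also rose, by 0.48 (adjusted p = 0.00819). Both control means, 8.33 and 8.19, lay near the median of all probes.

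Cxcl11 binds the same receptor and went the other way at its brighter probe, which the annotation assigns to a cDNA sequence outside RefSeq. Its brighter probe had 8.08, 8.09 and 8.11 in mutants and 8.58, 8.80 and 8.87 in controls, a fall of 0.66 (SE 0.0748, limma adjusted p = 0.00342). The mutant arrays sat at the floor of the scale, as did every array at the second Cxcl11 probe, with means of 8.09 and 8.13. That second probe, the one assigned to the RefSeq transcript, was not called (limma adjusted p = 0.353). Cxcl9, the remaining Cxcr3 ligand, was not called at 8.38, 8.31 and 8.27 in mutants and 8.36, 9.09 and 8.97 in controls (limma adjusted p = 0.197). Control replicate 1 lay with the mutants there, and without it the difference was -0.71 (adjusted p = 0.00466). Cxcl9 is named after its values were seen.

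Cxcl1 attracts neutrophils through Cxcr2. It had 9.07, 9.19 and 9.07 in mutants and 8.62, 8.49 and 8.43 in controls, a rise of 0.59 (SE 0.0597, limma adjusted p = 0.00218) with separated groups. Of the neutrophil markers, 8 of 10 lay below the 18420 brightest probes, their mean level was 8.24 to 8.35 in mutants and 8.20 to 8.25 in controls, and Lcn2 alone was called, at -0.23. Retnlg had 8.50, 9.45 and 9.14 in mutants and 8.22, 8.20 and 8.19 in controls and was not called (0.83, limma adjusted p = 0.08). It was called higher without mutant replicate 1 (1.09, adjusted p = 0.00132), with the 18420 brightest probes (0.0269) and with array weights (0.0199).

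Cxcl12, the Cxcr4 ligand made by stromal cells, was read by 5 probes that the annotation assigns to 3 different RefSeq transcripts. The brightest, assigned to the first transcript, had 12.21, 11.97 and 11.90 in mutants and 12.34, 12.27 and 11.97 in controls and was not called (difference -0.17, SE 0.127). A probe of the second transcript had 11.09, 10.95 and 10.80 against 10.41, 10.63 and 10.53 and rose by 0.42 (limma adjusted p = 0.0319). A probe of the third transcript was at 10.40 in mutants and 10.11 in controls (0.29, adjusted p = 0.0652) and was called without control replicate 2 (0.0189). The other 2 probes, between 8.09 and 8.11 in both groups, sat at the floor. The second transcript's call ended with the replicate block (0.0878) and on leaving out mutant replicate 2 (0.0998) or control replicate 1 (0.105), 2 (0.0557) or 3 (0.101). Whether the transcripts differed in their response was not tested.

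**Figure D2:**
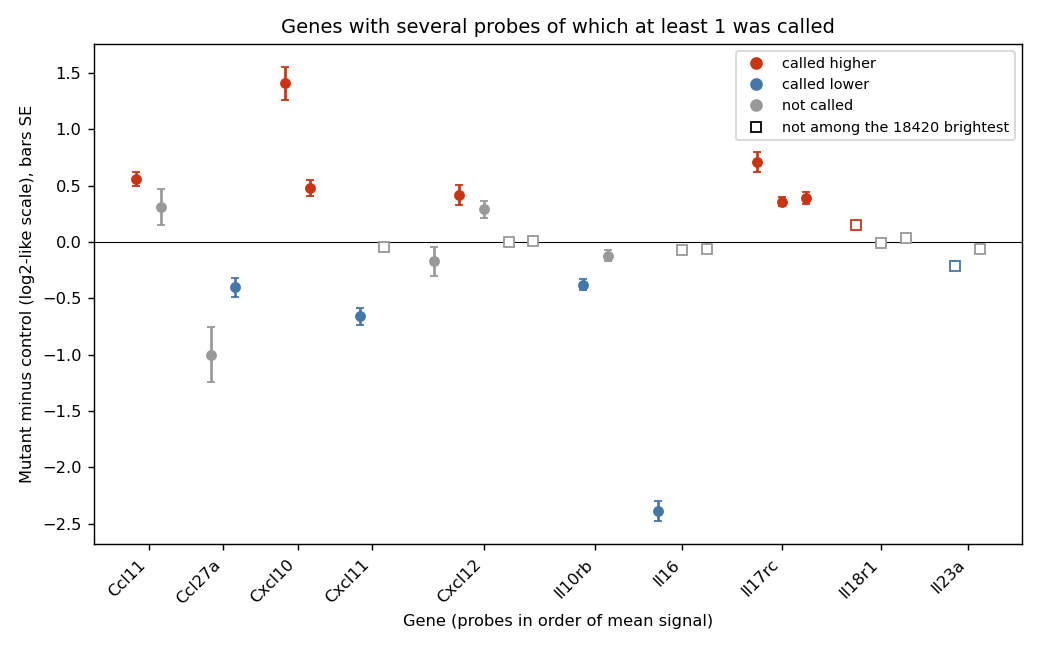
Mutant minus control with its SE (vertical axis, deposited log2-like scale) at every probe of the 10 genes that have several probes and at least 1 called, in order of mean signal within a gene, with open squares for probes outside the 18420 brightest. All probes were called at Cxcl10 and Il17rc, and no gene had probes called in opposite directions.

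Promoter sequences are shown for the 3 chemokines with the largest rises among those with a window, for Cxcl9 beside Cxcl10, and for Il16 and Il17rb, the pair of largest falls among called probes of genes with a window. They are the 250 bases before an annotated start, from RefSeq on build GRCm38.p6, written 5′ to 3′ along the gene. Capitals mark matches, on either strand, to the NF-kB consensus, to GAAA repeated after any 2 bases (the response element of interferon-induced genes), to TGANTCA (AP-1), to TATAAA and to GCGNGGGCG (Egr factors), and overlapping matches run together. For Il16, the 1 of 3 annotated starts with an NF-kB match is shown; of the others, 1 holds AP-1 letters.
Cxcl10, chr5:92348890-92349139, minus strand: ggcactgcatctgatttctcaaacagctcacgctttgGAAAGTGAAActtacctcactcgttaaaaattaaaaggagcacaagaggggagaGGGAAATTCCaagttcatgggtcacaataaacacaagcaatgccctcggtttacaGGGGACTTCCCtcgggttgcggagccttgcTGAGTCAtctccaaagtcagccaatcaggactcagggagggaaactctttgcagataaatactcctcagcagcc
Cxcl9, chr5:92328080-92328329, minus strand: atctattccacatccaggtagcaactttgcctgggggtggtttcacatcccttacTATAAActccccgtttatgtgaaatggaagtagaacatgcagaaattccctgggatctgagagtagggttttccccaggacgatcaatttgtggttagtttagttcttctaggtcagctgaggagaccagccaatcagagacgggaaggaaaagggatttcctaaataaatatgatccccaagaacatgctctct
Cxcl1, chr5:90890995-90891244, plus strand: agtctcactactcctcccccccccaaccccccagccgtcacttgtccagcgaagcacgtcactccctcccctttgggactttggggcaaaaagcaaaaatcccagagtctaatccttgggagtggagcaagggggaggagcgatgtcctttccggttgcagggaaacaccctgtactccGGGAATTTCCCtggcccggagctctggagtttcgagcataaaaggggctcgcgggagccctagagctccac
Ccl9, chr11:83578637-83578886, minus strand: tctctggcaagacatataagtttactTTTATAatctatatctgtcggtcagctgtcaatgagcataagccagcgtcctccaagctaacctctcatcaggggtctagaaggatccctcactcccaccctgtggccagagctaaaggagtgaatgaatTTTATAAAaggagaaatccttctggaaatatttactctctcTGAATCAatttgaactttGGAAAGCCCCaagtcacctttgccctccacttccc
Il16, chr7:83655496-83655745, minus strand: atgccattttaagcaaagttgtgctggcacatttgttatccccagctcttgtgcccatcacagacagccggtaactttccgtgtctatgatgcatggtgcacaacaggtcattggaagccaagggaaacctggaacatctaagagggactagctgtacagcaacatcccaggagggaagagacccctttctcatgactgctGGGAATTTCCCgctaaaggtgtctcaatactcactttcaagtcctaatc
Il17rb, chr14:30008897-30009146, minus strand: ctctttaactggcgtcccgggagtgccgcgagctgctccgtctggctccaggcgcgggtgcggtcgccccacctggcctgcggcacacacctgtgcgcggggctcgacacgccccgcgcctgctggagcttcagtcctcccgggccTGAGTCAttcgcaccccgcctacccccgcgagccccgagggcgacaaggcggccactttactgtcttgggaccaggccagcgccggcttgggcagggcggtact
In these letters Cxcl10 holds the interferon-type element, a single AP-1 match and the NF-kB consensus at more than 1 place, whereas the Cxcl9 window holds only TATAAA. Cxcl1 and the Il16 start shown hold the same run of NF-kB letters. That Il16 start was picked for its NF-kB match, and which start the called Il16 probe reads could not be checked. The Il17rb window holds 1 AP-1 match.

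Windows were matched for 98 of the 129 member genes, and for 14 of the 21 with a called probe. The NF-kB consensus stood in 16 of the 98 genes (16.3%), against 8.23% of all 27025 genes with a window. AP-1 letters stood in 19 of 98 (19.4%, against 7.82%), TATAAA in 23 (23.5%, against 14.3%), the interferon-type element in 5 (5.1%, against 3.46%) and the Egr letters in 2 (2.04%, against 5.33%). Among the called genes the NF-kB consensus was in 3 of 11 that rose and in 1 of 3 that fell, and AP-1 letters were in 2 of 11 and 3 of 3. Genes with several starts, such as Il16 and Ccl27a, had more windows in which to hold a match. These are letter matches, and no binding was measured.

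Cx3cl1, the membrane-bound chemokine of neurons and endothelium, read 8.49 in mutants and 8.42 in controls and was not called (difference 0.07, limma adjusted p = 0.305). Its receptor Cx3cr1, carried by resident macrophages and monocytes, was the only 1 of 17 chemokine receptor genes called. Cx3cr1 had 10.29, 10.20 and 10.02 in mutants and 9.24, 9.32 and 9.64 in controls, so every mutant array lay above every control. It rose by 0.77 (SE 0.123, limma adjusted p = 0.0115), a call lost with the replicate block (0.0589) and without control replicate 2 (0.73, adjusted p = 0.0522). Cxcr4, the receptor of Cxcl12, was at 8.83 and 8.68 and was not called (adjusted p = 0.343). The remaining 15 receptor genes of this group had no probe among the 18420 brightest except Ccr7, and the uncalled probes ran from -0.02 to 0.15.

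Macrophage markers were measured beside these genes. Of 17 on the array, 3 rose and 1 fell, Mpeg1 at 1.19, Laptm5 at 0.51, Ctss at 0.25 and Cd163 at -0.76, with a median of 0.06. Ctss lost its call without any single array except control replicate 3 (adjusted p from 0.0616 to 0.157). With the replicate block 4 were higher, Adgre1 joining at 0.23 (adjusted p = 0.0268). The list's mean level was 10.31 to 10.47 in mutants and 10.25 to 10.36 in controls, ranges that overlap, and 2 of the 17 lay below the 18420 brightest probes. Markers of T, NK and B cells all lay below that line, 9 of 9, with a median of 0.05, and 0 were called. In other fits 4 were higher without mutant replicate 1, 3 with a variance trend and robust prior, and 2 with array weights. Cd3g differed by 0.17 (limma adjusted p = 0.0793) and Cd3e by 0.15 (0.0542), while Cd79b had the largest fall, at -0.09 (0.267). The part of macrophage number in the rise of Cx3cr1, Ccl9 and Cxcl10 was not tested.

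**Figure D3:**
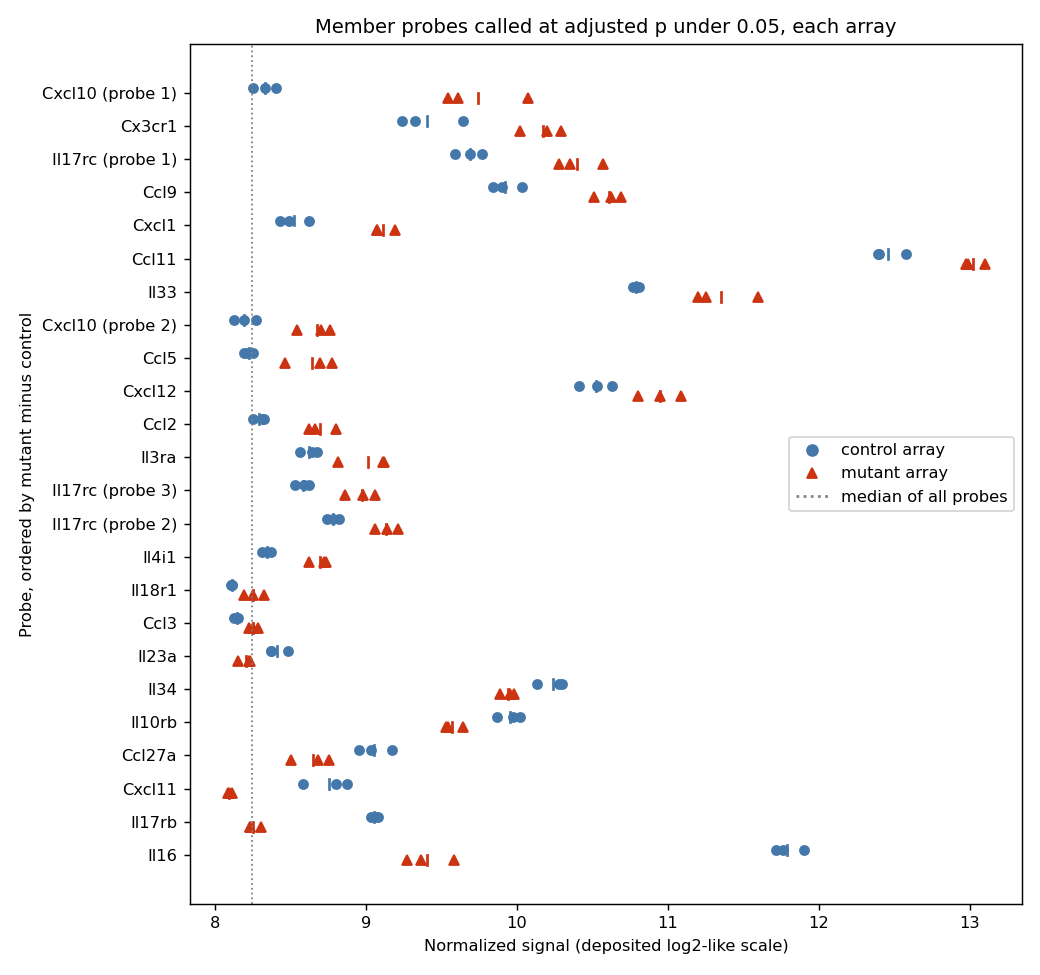
Normalized signal (horizontal axis, deposited log2-like scale) of the 24 called member probes in each control array (circles) and mutant array (triangles), with short bars for group means and a dotted line at 8.24, the median of all probes; probes of 1 gene are numbered by brightness. Il16 drops from about 11.79 to 9.40 in all arrays, while the mutant values of Cxcl11 and Il17rb lie close to the dotted line or below it.

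Il16 showed the largest difference of any member. It encodes a cytokine cut from a longer precursor that attracts cells bearing CD4, and a long form is known from neurons. Its brightest probe had 9.27, 9.36 and 9.58 in mutants and 11.72, 11.76 and 11.90 in controls. The difference was -2.39 (SE 0.0893, adjusted p = 7.52e-05 by limma). The gap between the groups was far wider than the spread within either. The other 2 Il16 probes lay near the floor, at 8.21 and 8.28 and at 8.15 and 8.21 in mutants and controls, and were not called (adjusted p = 0.317 and 0.436). Cd4, which encodes its binding partner, read 8.25 in mutants and 8.24 in controls.

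Il34 is a ligand of the receptor Csf1r and supports tissue macrophages. It had 9.89, 9.98 and 9.95 in mutants and 10.13, 10.28 and 10.30 in controls, a fall of 0.30 (SE 0.0544, limma adjusted p = 0.0183) that lost its call without mutant replicate 3 (0.0524) or control replicate 2 (0.0724) or 3 (0.0634). Csf1, the other ligand of that receptor, rose in the same nerves, from 9.27, 9.25 and 9.20 in controls to 10.20, 10.07 and 9.90 in mutants (0.82, SE 0.0755, adjusted p = 0.00159 by limma). Csf1r itself was at 10.24 and 10.20 and was not called (adjusted p = 0.718).

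In the IL-1 family, 1 of 9 ligand genes and 1 of 8 receptor genes rose, and 0 fell. Il33, an alarm signal stored in the nuclei of stromal and endothelial cells, had 11.60, 11.20 and 11.25 in mutants and 10.81, 10.79 and 10.77 in controls. It rose by 0.56 (SE 0.107, limma adjusted p = 0.0227), and the call was lost without control replicate 1 (0.083), 2 (0.0819) or 3 (0.0837). Il18 was at 8.50 and 8.52 and was not called. Its receptor chain Il18r1, dim at 8.25 and 8.11 at its brightest probe, rose there by 0.15 (limma adjusted p = 0.0411). That call ended with the replicate block (0.0828) and on leaving out any array but mutant replicate 3 (adjusted p from 0.0727 to 0.128). The dimmer Il18r1 probes differed by -0.01 and 0.04 and were not called (adjusted p = 0.898 and 0.51). Il1rap, the chain shared by the IL-1 and IL-33 receptors, had 6 probes with differences from 0.02 to 0.18, none called. Il1rapl1, a synaptic relative, moved by 0.12 (adjusted p = 0.0538), called without control replicate 3 (0.0479). The inhibitors Il18bp and Il1rn, at 8.43 against 8.44 and at 8.19 against 8.17, were not called.

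Receptors of the IL-17 family moved in both directions while its ligands did not pass the test. Il17rb, a receptor chain for IL-25 and IL-17B, had 8.30, 8.23 and 8.23 in mutants and 9.06, 9.03 and 9.08 in controls. It fell by 0.80 (SE 0.0283), with the smallest adjusted p of all members (6.48e-05 by limma), and its mutant values lay at the median of the scale. Il17rc, which pairs with Il17ra to bind IL-17A and IL-17F, rose at all 3 of its probes. The brightest had 10.35, 10.28 and 10.57 in mutants and 9.77, 9.69 and 9.59 in controls (0.71, SE 0.0869, adjusted p = 0.00448), and the others rose by 0.36 and 0.39. Il17rd, a member of the family that also restrains growth factor signalling, was at 9.33 and 9.21 and was not called. Of 6 IL-17 family ligand genes 0 were called by limma, and 1 of their 7 probes had an unadjusted p under 0.05. Il17d read 9.67 and 9.68 and Il17a 8.17 and 8.20.

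In the IL-10 family, 1 of 6 receptor genes and 0 of 5 ligand genes were called. Il10rb, the chain shared by the receptors of IL-10, IL-22 and the lambda interferons, had 9.53, 9.54 and 9.64 in mutants and 9.97, 9.87 and 10.02 in controls. It fell by 0.38 (SE 0.0492, limma adjusted p = 0.00549) with separated groups. A dimmer Il10rb probe, at 8.63 and 8.75, was not called (-0.12) but was without control replicate 3 (adjusted p = 0.0263). Il20rb was at 8.40 and 8.36, Il24 at 8.27 and 8.25 and Il10 at 8.13 and 8.14, none of them called.

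The IL-6 and IL-12 families held 1 call among 13 genes, at a dim probe. Il23a, the specific subunit of IL-23, went from 8.41 ± 0.0642 to 8.20 ± 0.0398 (SD, n = 3), a fall of 0.21 (limma adjusted p = 0.0234). Leaving out mutant replicate 2 (0.0578) or 3 (0.058), or control replicate 1 (0.0547) or 2 (0.0559), ended the call. Il12a was at 8.24 in both groups. Il6st, the gp130 chain through which IL-6, LIF and oncostatin M signal, had 10.72, 10.50 and 10.36 in mutants and 10.31, 10.28 and 9.83 in controls. All mutant arrays lay above all controls, by 0.39 (SE 0.157), and the probe was not called (adjusted p = 0.205) except with the replicate block (0.0468). Il6ra was at 9.08 and 9.18 and was not called.

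Among the interleukins and receptors that use the common gamma chain or its relatives, 1 of 20 genes was called. Il3ra, the specific chain of the IL-3 receptor, had 8.81, 9.11 and 9.12 in mutants and 8.56, 8.64 and 8.67 in controls. Its rise of 0.39 (SE 0.0915, limma adjusted p = 0.0454) was lost without any single array except mutant replicate 1 (adjusted p from 0.109 to 0.155). Il13ra1, at 9.31 and 9.22, was not called, nor were Il15 (8.88 and 8.94) and Il13 (8.35 and 8.39). Il4i1, an amino acid oxidase induced by IL-4 that is no interleukin, is a member by its symbol. It had 8.62, 8.73 and 8.72 in mutants and 8.34, 8.37 and 8.31 in controls, a rise of 0.34 (SE 0.0364, adjusted p = 0.00265). Mast cells carry the IL-3 receptor and respond to IL-33, and of 8 mast cell markers 4 rose, Cpa3 at 1.04, Cma1 at 1.04, Mcpt4 at 0.71 and Tpsb2 at 0.60. Their list had a mean level of 9.25 to 9.53 in mutants and 8.87 to 8.99 in controls, with 2 of 8 below the 18420 brightest. Without mutant replicate 2 or any control array Cpa3 alone was called, and Mcpt4 was lost with the replicate block (0.0503). Their part in the values of Il3ra and Il33 was not tested.

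**Figure D4:**
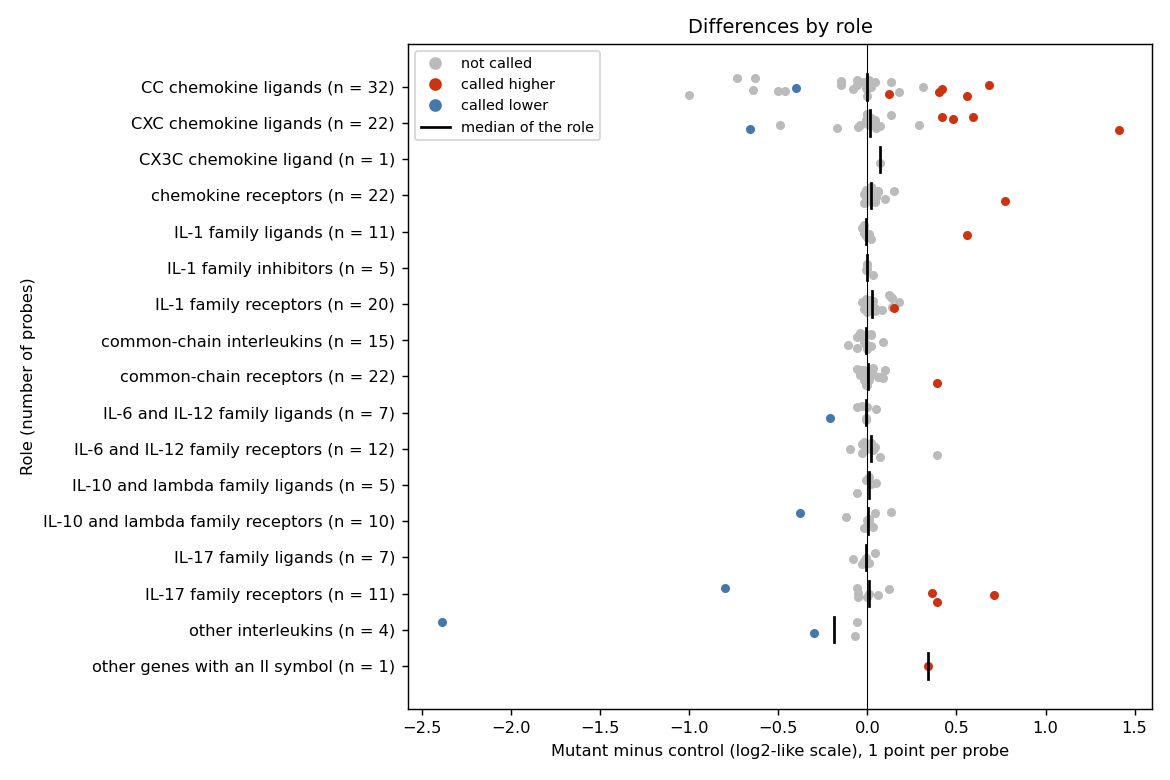
Mutant minus control (horizontal axis, deposited log2-like scale) of every member probe, 1 point per probe, grouped by role on the vertical axis with the number of probes in each, coloured by call and with a bar at the median of the role. Calls are spread over the roles, medians lie close to 0 except at the roles with 4 probes or fewer, and the IL-17 receptors show both a fall (-0.80) and rises (up to 0.71).

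Genes that act with the members were counted from lists, each gene by its brightest probe, beside the 19.9% of all genes called. Across these and the marker lists 46 genes were called, and 30 without control replicate 1, a fit in which the number of all probes called fell from 6386 to 4167. Of 12 atypical chemokine receptors and chemokines with other symbols, 0 rose and 1 fell (3 without mutant replicate 1). Ackr1, the scavenging chemokine receptor of venules and red cells, had 9.40, 9.59 and 9.37 in mutants and 10.36, 10.42 and 10.26 in controls, a fall of 0.90 (SE 0.0711, limma adjusted p = 9.07e-04). Of 10 endothelial markers, Cldn5 fell by 0.88, and the list's mean level was 9.92 to 10.06 in mutants and 9.98 to 10.25 in controls, with 1 of 10 below the 18420 brightest and 2 called lower without control replicate 3. The blocked fit had 2 lower, Vwf joining at -0.55 (adjusted p = 0.0402), and 1 higher, Pecam1 at 0.25 (0.0309). Their part in the Ackr1 value was not tested.

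Of 17 related cytokines and receptors, 4 rose and 1 fell. Besides Csf1, the oncostatin M receptor chain Osmr, a partner of gp130, rose from 8.94 to 9.61 (0.67, adjusted p = 0.00274 by limma), and Crlf3 fell by 0.49. In the JAK, STAT and SOCS list 4 of 22 genes rose and 1 fell. Jak1 is a kinase, among others, of receptors that contain gp130 or the common gamma chain. It had 9.23, 9.26 and 9.31 in mutants and 10.50, 10.34 and 10.58 in controls. It fell by 1.21 (SE 0.0638, limma adjusted p = 2.23e-04), while Tyk2, another kinase of that family, rose by 0.49 (adjusted p = 0.00173). Socs2, an inhibitor of cytokine signalling, rose by 0.73 (adjusted p = 0.0463), which ended with the replicate block (0.0553) and on leaving out mutant replicate 1 (0.0615) or 2 (0.127) or control replicate 1 (0.156) or 3 (0.141). Without mutant replicate 2, control replicate 1 or control replicate 3, 2 genes of that list were higher, and without mutant replicate 1, 3 were lower.

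Of 23 genes listed under IL-1 and IL-17 receptor signalling to NF-kB, inhibitors and adaptors of related receptors included, 4 rose and 3 fell, with a median of 0.07. The adaptor Tirap rose by 0.66 (SE 0.0394, limma adjusted p = 3.45e-04), Tollip by 0.37 and Nfkb2 by 0.34. The call of Nfkb2 ended with the replicate block (0.0622) and on leaving out mutant replicate 2 (0.0524) or control replicate 1 (0.0636) or 2 (0.0604). With the replicate block 2 genes of this list were higher and 1 lower, without control replicate 1 or 2 there were 2 higher, and the lower calls were 0 without control replicate 1 or 3 and 1 without control replicate 2, mutant replicate 2 or mutant replicate 3. Of 17 genes of chemokine receptor signalling 3 rose (5 without mutant replicate 1) and 3 fell, led by the G protein subunits Gnai1 at -1.70 (SE 0.118, adjusted p = 5.7e-04) and Gng2 at -1.07 and the guidance adaptor Elmo1 at -0.38. Elmo1 lost its call without mutant replicate 2 (0.0613) or control replicate 1 (0.0954) or 3 (0.0884). Of 13 tumour necrosis factor ligands and receptors 1 rose (2 without mutant replicate 3), Tnfrsf12a, the receptor of Tweak, at 1.56 (SE 0.209, adjusted p = 0.0062).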

How the data were processed

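Total RNA of 6 sciatic nerve samples was hybridised to 1 array each. The authors deposited 1 log2-like value per probe and array. The series' design text names limma and RMA for its making, while lumi 1.8.3 stands in the submitters' processing notes. Neither says if a variance-stabilising transform was applied or how background was treated; with such a transform, dim probes would show too small a fold. Sorted values of the 6 arrays differ by at most 0.00025, so a shift common to all genes cannot be seen. The number of arrays limits the precision.

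All 45281 probes were fitted with limma 3.58.1 in R 4.3.3 (lmFit, eBayes, 4 residual and 1.69 prior degrees of freedom, 2-sided), with Benjamini-Hochberg adjustment over all probes and no filter, since the members include dim probes. The design text describes a present call filter that kept 18420 probes, and the 18420 probes of highest mean stand in for it as an alternative. The 2-fold threshold was a difference of at least 1. The fit was tested on simulated data. Symbols came from the platform annotation, in which 18 probes have several symbols and 10378 none. All 207 members matched the RefSeq gene table of GRCm38.p6 by gene identifier, and 0 symbols changed.

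Members, lists and tests were chosen with earlier results of these data known. Named are, in each role, up to 6 genes with a called probe and the 2 brightest, every gene past 2-fold, and up to 3 called genes of each list. Other genes named were chosen after their values were seen. Mutant and control titles share the numbers 1 to 3. Deviations from the group means of same-numbered arrays correlated at 0.165, 0.155 and 0.224, and those of differently numbered arrays at -0.157 to 0.028. The numbers may therefore pair the samples. These values cannot settle it, since deviations cancel out within a group, and positive correlations at same numbers go with negative ones elsewhere. The main fit, on which counts and p-values rest unless stated, holds no block. The fit with the number as a block is given where it changes a member's call or that of a list gene named with its value. Alternatives were 2 brightness filters, a variance trend with a robust prior, array weights, the replicate block, another centring, the mean of all probes of a gene, and leaving out each array.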

Additional observations from a re-analysis of the deposited data

How the results depend on the processing

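Of the 24 called member probes, 14 kept their call in every alternative that tested them and 10 lost it in at least 1, and none changed direction. The mean of all probes of a gene, which tests genes and not probes, is not part of that count. With the 10000 brightest probes, where fewer members were tested, 12 member probes were called, 7 of them higher, and 10 member genes. Of all 10000 probes tested in that fit, 4387 were called. Leaving out 1 array gave 15 to 28 called member probes, 11 to 21 higher, 4 to 8 lower, 2 to 3 past 2-fold, 11 to 22 called member genes and 30 to 56 called genes of the lists. In each of these fits the number of all probes called moved in the same direction as the number of called member probes. Both rose without mutant replicate 1 and fell without any other array. For all probes the counts ran from 4167, without control replicate 1, to 7395, without mutant replicate 1, against 6386 in the main fit. With the replicate block 20 member probes were called, and 5504 of all probes, against 24 and 6386 in the main fit. The block kept 18 member probes, lost the 6 named with their values above, and added Il6st and a Ccl12 probe (adjusted p = 0.0102). Among the members it changed no other call. In the lists it also added Grk5 (0.0322) and Pias3 (0.0496). Ccl12 was also called with the 18420 brightest probes (-0.73, adjusted p = 0.0295 by limma). Ccl4, Ccl6, Ccl24, Cxcl16, Il4 and Il10ra were each called in at least 1 fit that left out an array. Centring each array on the median of the 18420 brightest probes shifted it by 0 and changed nothing. Dim members limit what can be seen: for 131 probes the signal lay below that of the 18420 brightest.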

Other observations

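Some chemokines varied between arrays of 1 group, and these genes were picked after their values were seen. The lymphoid chemokine probes of Ccl21a and Ccl21c, which are near-identical genes, were highest at replicate 2 of both groups. The Ccl21a probe had 8.96, 9.78 and 9.12 in mutants and 9.96, 10.43 and 9.40 in controls, and the brighter Ccl21c probe had 8.97, 9.92 and 9.15 and 9.95, 10.49 and 9.50. Neither was called (limma adjusted p = 0.321 and 0.356).

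At some chemokines control replicate 1 had the highest control value, as at Cxcl1 (8.62, 8.49 and 8.43 in controls) and the brighter Ccl27a probe (11.06, 10.78 and 10.29). At several others it had the lowest. At Ccl8 the controls had 8.18, 8.75 and 8.80, at Cxcl9 8.36, 9.09 and 8.97, at Cxcl11 8.58, 8.80 and 8.87, and at the brighter Ccl12 probe 9.55, 9.93 and 10.23. The brighter Cxcl10 probe, with 8.25, 8.33 and 8.40 in controls, had its lowest control value there too. In mutants Ccl12 had 8.87, 9.31 and 9.35, below every control, with a difference of -0.73 (limma adjusted p = 0.085).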
